A study of Mus musculus with 14 samples.

Results

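Secreted factors that keep photoreceptors and other retinal cells alive were examined in the retinal pigment epithelium (RPE) of rd1 mice. They were the 9 genes Lif, Cntf, Fgf2, Edn2, Bdnf, Gdnf, Mdk, Ptn and Igf1, chosen by name as trophic factors by which the RPE may support cones, with earlier results of these data known, out of 34452 mouse genes in the count table. All 9 were listed, and 7 of them held enough counts to be tested among 16289 genes. The rd1 mouse lacks a working Pde6b, an enzyme of rod phototransduction, so its rods die early and the RPE is left beside a degenerating retina.

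RNA was taken at postnatal day 20 from both eyes of 7 rd1 mice, which gave 14 libraries. In the Nrf2 eye of each mouse, AAV-Best1-Nrf2 and AAV-Best1-GFP had been injected under the retina, and in the control eye AAV-Best1-GFP only. AAV is adeno-associated virus, a gene delivery vector, Best1 is a promoter active in the RPE, and GFP is green fluorescent protein, which both groups carried. The Nrf2 vector encoded human Nrf2, gene NFE2L2, a transcription factor that switches on antioxidant genes, and its capsid was not that of the GFP vector. The eyes of a mouse thus differed by an added virus as well as by the transgene. Each library came from the eyecup of 1 eye after the retina had been lifted off. It was therefore a bulk sample, in which fewer cells of a type and less RNA per cell cannot be told apart. Each library is called by its group and the number of its mouse.

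The genes act in different ways. Lif and Cntf encode cytokines that signal through the shared receptor subunit Il6st to the transcription factor Stat3. Fgf2 (basic fibroblast growth factor) and Edn2 (endothelin 2) are widely used as markers of photoreceptor stress, and Fgf2, Cntf, Bdnf and Gdnf have each been delivered to degenerating retina as survival factors. Mdk (midkine) and Ptn (pleiotrophin) form a small family of heparin-binding growth factors, and Igf1 is an insulin-like growth factor held by a set of binding proteins.

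Because the treatment delivered Nrf2, the RefSeq promoter windows of the 9 genes, on build GRCm38.p6, were searched for the core of the antioxidant response element, the sequence that Nrf2 binds with its partners. A window ran from 250 bases before to 50 bases after a transcript start, and the core was TGACNNNGC on either strand, which reads GCNNNGTCA on the other strand. Of the 9 genes, 8 had a window, 15 windows in all, and Mdk had none. The core stood in the windows of Fgf2, with 2 matches, and Lif, with 1, while 12.4% of all 32851 windows held it. Those 3 matches are shown in stretches of 60 bases, all read on the plus strand, with the core in capitals. They were chosen for print after the values were seen.
Lif chr11:4257318-4257377: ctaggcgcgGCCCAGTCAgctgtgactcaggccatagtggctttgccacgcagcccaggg
Fgf2 chr3:37348483-37348542: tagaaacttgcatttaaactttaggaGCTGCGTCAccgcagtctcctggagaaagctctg
Fgf2 chr3:37348621-37348680: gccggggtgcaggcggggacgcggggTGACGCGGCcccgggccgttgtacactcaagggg
The Lif match lay on the minus strand, 241 to 233 bases before the start. The upstream Fgf2 match was also on the minus strand, from -144 to -136, and the other Fgf2 match spanned the start on the plus strand, from -6 to 3. Such a match describes these letters only, and neither binding nor a response was measured here.

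The libraries set limits on what follows. Total counts ranged from 16451241 in Nrf2 2 to 50110846 in Nrf2 7, and values are given in CPM, counts scaled to a library total of 1000000 mouse counts. The vector transcript, human NFE2L2, checks the labels. It ranged from 1165 to 8787 CPM in Nrf2 libraries and from 1.12 to 1164 CPM in control libraries. The library labelled control 3 thus carried as much vector transcript as Nrf2 4, the lowest of the Nrf2 libraries. These 2 libraries, of different mice, also differed from each other by only 3.86 times sampling noise over 16165 genes, where the next closest pair differed by 10.8 times. Results are therefore also given without mice 3 and 4 where that matters. Pseudogenes took 2.57% of the counts in Nrf2 2 and 1.06% to 1.17% in the other 13 libraries. The 10 RPE markers, each present in all 14 libraries, summed to between 11692 and 25499 CPM. Their sum was higher in the Nrf2 eye of 5 of 7 mice. Of the 10, 5 had a log2 fold change above 0 and 5 below, with a median of -0.08. Only Rpe65, the retinoid isomerase of the visual cycle, passed the threshold of an adjusted p under 0.05. It was lower in Nrf2 eyes with a log2 fold change of -2.17 (edgeR adjusted p = 0.0198). Markers of other cells were present as well. The 8 cone markers summed to 41.6 to 1030 CPM in control and 17.3 to 102 CPM in Nrf2 libraries, lower in the Nrf2 eye of 7 of 7 mice, and the 7 surface epithelium markers, keratins chief among them, summed to 2067 to 57692 CPM in control and 2347 to 24173 CPM in Nrf2 libraries. They were lower in the Nrf2 eye of 6 of 7 mice, with a median log2 fold change of -1.18 and none of the 7 past the threshold, and in 6 of the 14 libraries, 4 control and 2 Nrf2, their sum exceeded that of the RPE markers. The 8 Müller glia markers summed to 2310 to 5251 CPM in control and 2721 to 3407 CPM in Nrf2 libraries, lower in 6 of 7 mice. Rlbp1 is in both the RPE and the Müller glia list, so this sum holds counts of an RPE marker and does not measure Müller glia alone.

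To compare transcript levels between genes, CPM were divided by exon length in kilobases and averaged over the 14 libraries. Mdk was the most abundant of the 9 at 195 CPM per kb. Ptn followed at 31.0, Cntf at 22.5 and Igf1 at 5.69 CPM per kb. Bdnf at 1.25, Lif at 1.11 and Fgf2 at 0.785 CPM per kb formed a low group, and Edn2 at 0.132 and Gdnf at 0.0942 CPM per kb stood last. Mdk was above Ptn, Cntf above Igf1, Igf1 above Bdnf and Fgf2 above Edn2 in 14 of 14 libraries. Other neighbours did not keep their order from library to library: Ptn exceeded Cntf in 9 of 14, Bdnf exceeded Lif in 6, Lif exceeded Fgf2 in 7, and Edn2 exceeded Gdnf in 10.

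None of the 7 tested factors differed between Nrf2 and control eyes at an adjusted p under 0.05 in edgeR's quasi-likelihood test with mouse as a block. Over all genes 559, or 3.43%, passed. At an unadjusted p under 0.05 there were 2 of the 7, Lif and Cntf, beside 18.1% of all genes. DESeq2 called both, where it called 11.9% of all genes, and voom called Lif alone, where it called 15.9%. The median log2 fold change of the 7 factors was -0.04 and that of all genes tested was also -0.04. Unless another tool is named, the fold changes below are log2, Nrf2 minus control, with standard error (SE), 95% interval and adjusted p from the edgeR fit.

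**Figure D1:**
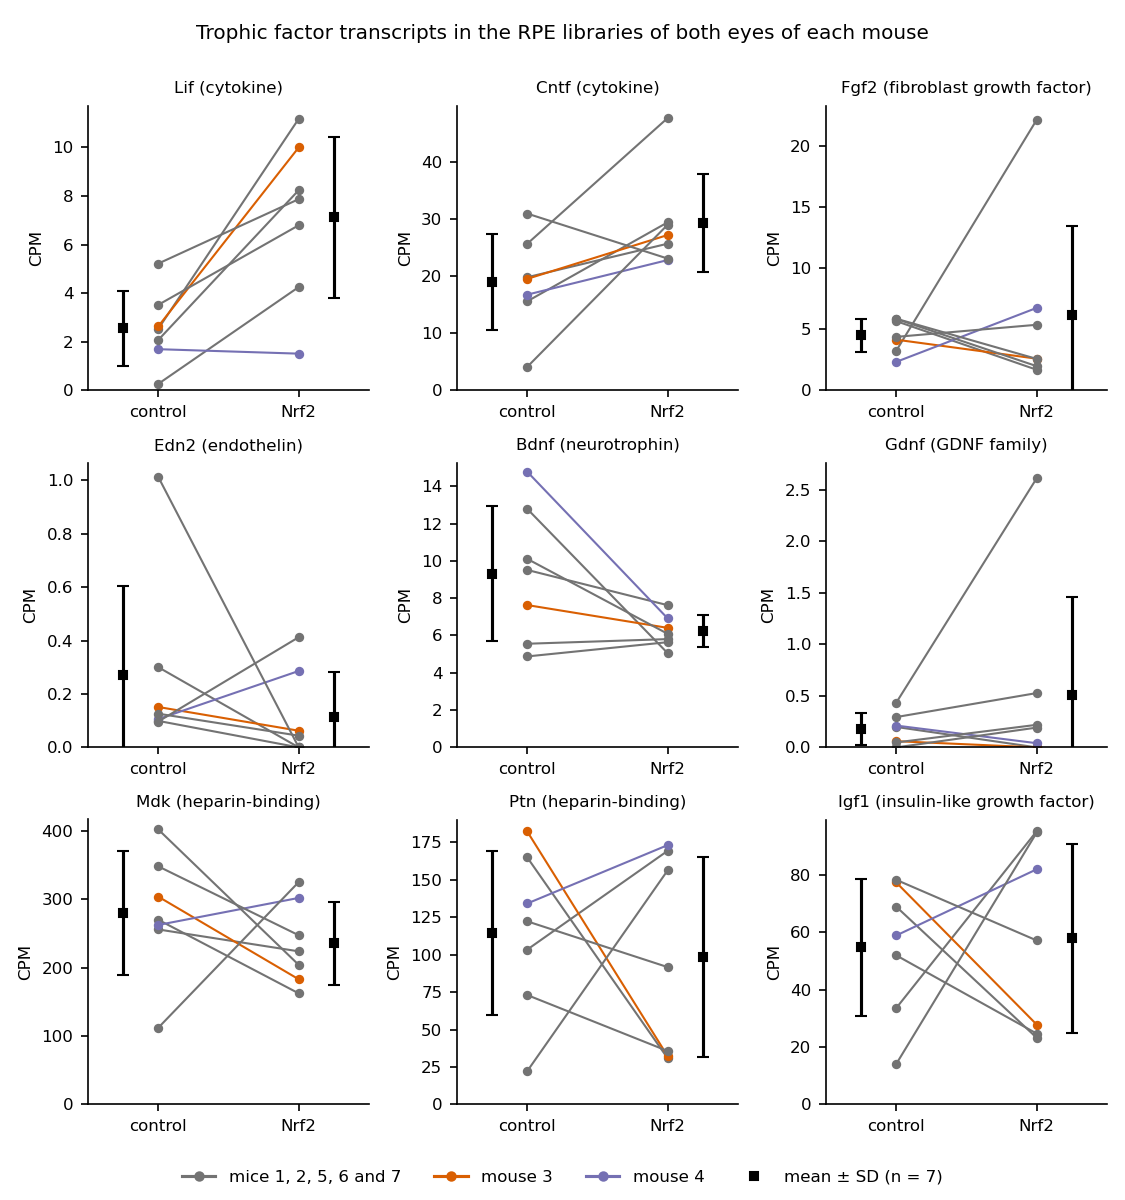
Transcript levels of the 9 factors in CPM (y axis, linear, each panel with its own range) in the control and Nrf2 eye of each mouse, joined by a line. Squares with bars are the mean ± SD of 7 libraries, and bars that would pass below 0 are cut at the axis. Lif and Cntf are each higher in the Nrf2 eye of 6 of 7 mice, while the lines of Mdk, Ptn and Igf1 cross.

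Among the Stat3-activating cytokines, Lif (ENSMUSG00000034394, chr11:4257557-4272514, plus strand) had the largest fold change of the 7 tested factors. In control libraries it ran from 0.267 through a median of 2.53 to 5.22 CPM, and in Nrf2 libraries from 1.51 through 7.87 to 11.2 CPM. The ranges overlapped, yet in every mouse but mouse 4 the Nrf2 eye was the higher. The mean was 2.56 ± 1.54 CPM in control and 7.12 ± 3.33 CPM in Nrf2 eyes (SD, n = 7), which rests on 564 and 1750 counts in all. The fold change of 1.72 (SE 0.47, interval 0.66 to 2.78) had an adjusted p of 0.0933, so the difference missed the threshold. A two-sided exact permutation test that flips the signs of the 7 paired differences of log2(CPM + 1) gave p = 0.0312, where 0.0156 is the smallest p that 7 pairs can give.

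The exception was mouse 4, with 1.70 CPM of Lif in the control and 1.51 CPM in the Nrf2 eye. Nrf2 4 was also the Nrf2 library with the least vector transcript, and its part in the result was not tested. Without mouse 4 the fold change of Lif was 1.99 with an adjusted p of 0.0250, in a fit that called 12.2% of all genes. Without mice 3 and 4 it was 1.97 with an adjusted p of 0.0855, in a fit that called 4.59%. Over the 14 alternatives the adjusted p of Lif ranged from 0.00178 with DESeq2 to 0.279 without mouse 1, the fold change stayed between 1.39 and 1.99, and 3 alternatives passed the threshold: DESeq2, voom and the fit without mouse 4.

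Cntf (ENSMUSG00000079415, chr19:12763660-12765632, minus strand), the ciliary neurotrophic factor, was also higher in most Nrf2 eyes. It ran from 4.13 through 19.6 to 31.0 CPM in control libraries and from 22.9 through 27.3 to 47.8 CPM in Nrf2 libraries. The Nrf2 eye was higher in mice 1, 2, 3, 4, 6 and 7 and lower in mouse 5, and the groups overlapped. Means were 18.95 ± 8.44 and 29.3 ± 8.54 CPM (SD, n = 7), and the fold change was 0.88 (SE 0.30, interval 0.19 to 1.57, adjusted p = 0.18, exact sign-flip permutation p = 0.0469). The fold change was 0.58 (SE 0.17, adjusted p = 0.13) without mouse 6, whose control library was the lowest of all 14. Of the 14 alternatives only DESeq2 passed, with a fold change of 0.90 and an adjusted p of 0.0365, and the others reached adjusted p up to 0.368. Cntf shares 847 of its 1073 exon bases with Zfp91 on the same strand. The counting model had to divide reads there, so both the level and the difference of Cntf are uncertain to that extent. Zfp91 itself stood at 73.5 CPM in control and 61.3 CPM in Nrf2 eyes.

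Fgf2 (ENSMUSG00000037225, chr3:37348346-37410108, plus strand) ran from 2.33 through 4.38 to 5.86 CPM in control and from 1.69 through 2.59 to 22.1 CPM in Nrf2 libraries. The 22.1 CPM were in Nrf2 2, the library of high pseudogene share, and no other library exceeded 6.75 CPM. Means of 4.50 ± 1.38 and 6.15 ± 7.29 CPM (SD, n = 7) thus differed mostly by that library, while the median was lower in Nrf2 eyes. The fold change was -0.04 (SE 0.57, interval -1.33 to 1.26, adjusted p = 0.98). The Nrf2 eye was higher in 3 mice and lower in 4, and the sign of the fold change turned with the mice included. Without mouse 2 it was -0.47. Fgf2 shares 640 exon bases with Nudt6 on the opposite strand, and the sources used here do not say whether counting used strand. Reads of the pair cannot be told apart if it did not.

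Edn2 (ENSMUSG00000028635, chr4:120161206-120167360, plus strand) was too rare to test. It had 4, 9, 5, 3, 3, 3 and 42 counts in control libraries 1 to 7 and 0, 0, 2, 7, 15, 1 and 0 counts in Nrf2 libraries 1 to 7. Control 7 alone held 42 of the 69 control counts, and the Nrf2 libraries held 25 counts together. In the 3 libraries at 0, a count of 0 allowed up to 0.0693, 0.182 and 0.0599 CPM in Nrf2 1, 2 and 7. The Nrf2 eye was lower in 5 of 7 mice. With no filter the fold change of Edn2 was -1.56 with an adjusted p of 0.71, so no difference was detectable at this depth.

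Bdnf (ENSMUSG00000048482, chr2:109674700-109727007, plus strand), the brain-derived neurotrophic factor, ran from 4.88 through 9.51 to 14.8 CPM in control and from 5.05 through 6.09 to 7.62 CPM in Nrf2 libraries. Control libraries spread more widely, and control 1, 2, 4 and 7 held the 4 highest values. Means were 9.32 ± 3.63 and 6.22 ± 0.855 CPM (SD, n = 7). The Nrf2 eye was lower in 5 of 7 mice, with a fold change of -0.37 (SE 0.25, interval -0.94 to 0.20, adjusted p = 0.47, exact sign-flip permutation p = 0.0781). The sign was negative in all 14 alternatives, none of which passed the threshold. Bdnf shares 896 exon bases with the antisense gene Gm45346, not analysed here, so the limit on strand given for Fgf2 holds for it too.

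Gdnf (ENSMUSG00000022144, chr15:7810846-7837575, plus strand), the glial cell line-derived neurotrophic factor, was the rarest of the 9 per kb. Counts were 8, 13, 2, 6, 0, 7 and 2 in control libraries 1 to 7 and 0, 43, 0, 1, 7, 12 and 11 in Nrf2 libraries 1 to 7. Nrf2 2, in which Fgf2 was also highest, held 43 of the 74 Nrf2 counts. A count of 0 allowed up to 0.0969 CPM in control 5, 0.0693 CPM in Nrf2 1 and 0.0938 CPM in Nrf2 3. Gdnf was not tested, and with no filter its fold change was 0.46 with an adjusted p of 0.91.

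Mdk (ENSMUSG00000027239, chr2:91929805-91932297, minus strand) ran from 112 through 270 to 403 CPM in control and from 163 through 224 to 326 CPM in Nrf2 libraries. The lowest value was in control 6 and the highest in control 5, so the Nrf2 libraries lay inside the control range. Means were 279 ± 90.8 and 236 ± 60.4 CPM (SD, n = 7), and the fold change was -0.10 (SE 0.26, interval -0.69 to 0.50, adjusted p = 0.89). Its relative Ptn (ENSMUSG00000029838, chr6:36714929-36810220, minus strand) ran from 22.2 through 122 to 182 CPM in control and from 30.7 through 91.7 to 173 CPM in Nrf2 libraries. The fold change of Ptn was -0.28 (SE 0.60, interval -1.64 to 1.07, adjusted p = 0.84), with the Nrf2 eye higher in 3 mice and lower in 4.

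Igf1 (ENSMUSG00000020053, chr10:87858265-87937042, plus strand) ran from 14.1 through 59.0 to 78.4 CPM in control and from 23.2 through 57.2 to 95.4 CPM in Nrf2 libraries. The fold change was 0.08 (SE 0.51, interval -1.08 to 1.25, adjusted p = 0.95), again with 3 mice higher and 4 lower. The intervals of Fgf2, Ptn and Igf1 each span more than 1 log2 unit on both sides of 0, so for them neither a doubling nor a halving was excluded at this spread. That of Mdk was narrower.

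**Figure D2:**
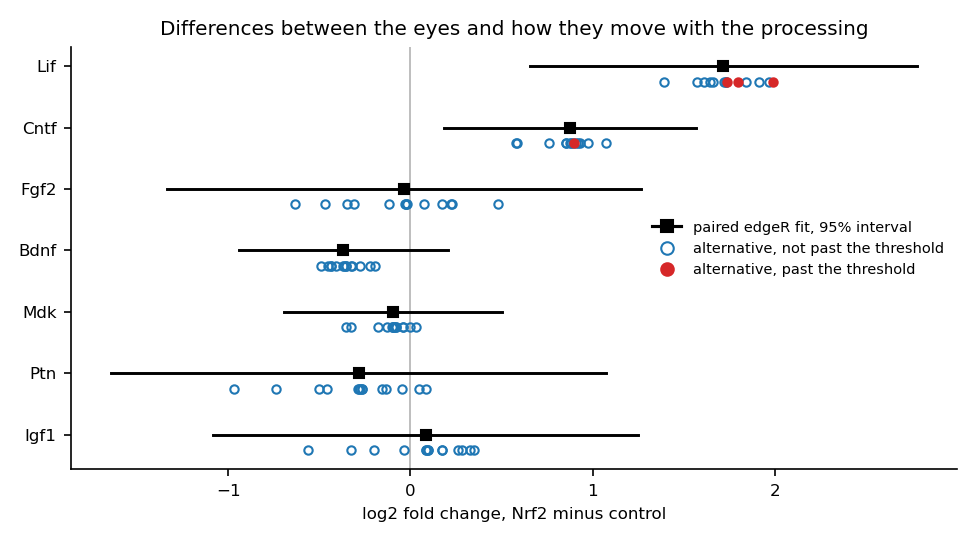
Log2 fold change, Nrf2 minus control, of the 7 tested factors (x axis). Squares with lines are the paired edgeR fit with its 95% interval, and circles beneath are the 14 alternatives, filled where the adjusted p passed 0.05. The intervals of Lif and Cntf lie above 0, with 3 and 1 filled circles, and those of the other 5 cross it.

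Ptn and Igf1 were high and low in the same libraries, whichever the group. Igf1 stood at 23.2, 27.8 and 24.7 CPM in Nrf2 1, 3 and 5 but at 95.4, 82.1 and 94.9 CPM in Nrf2 2, 4 and 6. Ptn stood at 30.7, 32.2 and 35.6 CPM in the first 3 of those and at 169, 173 and 156 CPM in the others. Across the 14 libraries Pearson's r of log2(CPM + 1) was 0.94 for Ptn and Igf1 (0.89 without control 6 and Nrf2 1, the libraries farthest from the median of Ptn), 0.80 for Mdk and Igf1 and 0.76 for Mdk and Ptn. The libraries share depth and cell makeup, so these are descriptions. The summed fibroblast markers moved the same way, at 417, 302 and 321 CPM in Nrf2 1, 3 and 5, at 1206, 801 and 1031 CPM in Nrf2 2, 4 and 6, and lowest in control 6 at 157 CPM. Control 6, which had the highest surface epithelium sum at 57692 CPM, was the lowest control library for Cntf, Mdk, Ptn and Igf1. The part of cell makeup in these values was not tested.

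**Figure D3:**
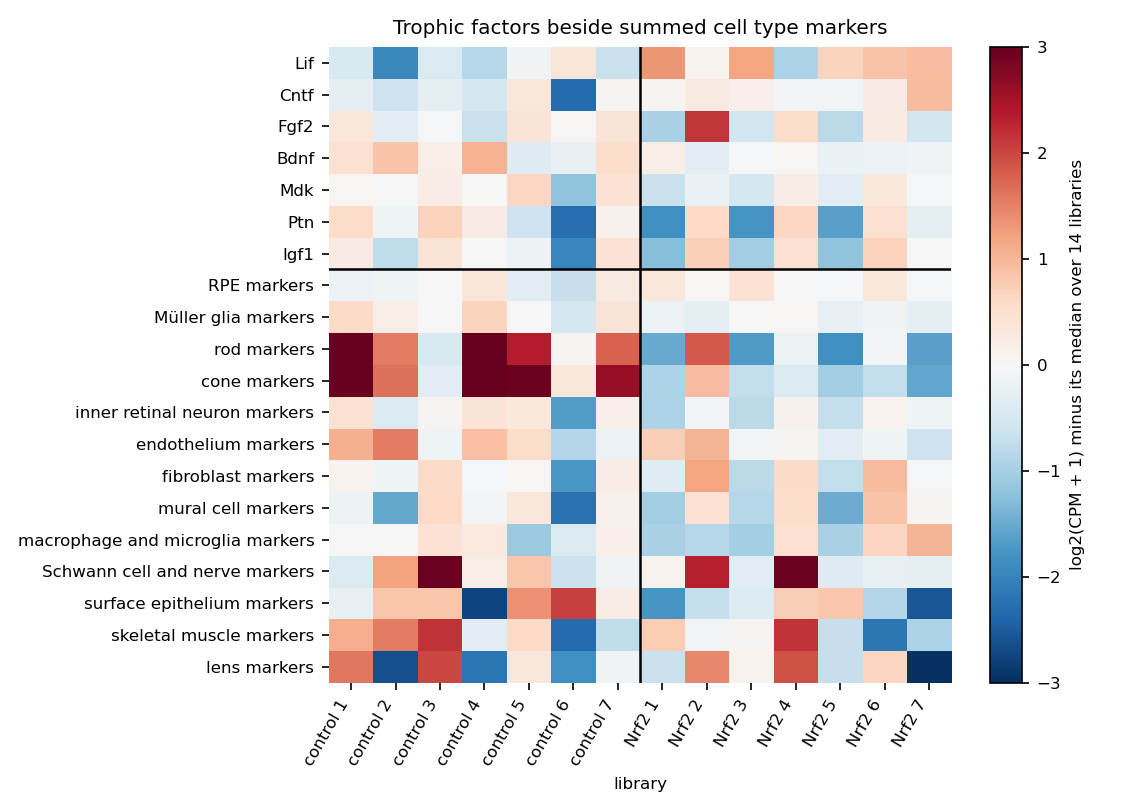
The 7 tested factors (upper rows) and summed cell type markers (lower rows) in each library (columns). Colour is log2(CPM + 1) minus the median of the row over 14 libraries, and the scale ends at 3 in either direction. Mdk, Ptn and Igf1 are low in control 6 and in Nrf2 1, 3 and 5, where the fibroblast and mural cell rows are low too, and the cone row is highest in control 1, 4 and 5.

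The genes most like each factor across the 14 libraries, by r of log2(CPM + 1) among 12030 genes with a mean of at least 5 CPM, set the factors apart. Mdk ran closest to Gpr180 (r = 0.99), Dhrs1 (0.97) and Dct (0.97), and Dct encodes a melanin-making enzyme of pigment cells. Cntf ran closest to Angptl2, Tyr and Aebp1 (r = 0.97 each), and Tyr encodes tyrosinase, the first enzyme of melanin synthesis. Without control 6 and Nrf2 7, the libraries farthest from the median of Cntf, r was 0.91, 0.85 and 0.86. Igf1 ran closest to Postn (0.96), Tgfb1i1 (0.95) and Adamts2 (0.95), of which Postn, a matrix protein, is also a fibroblast marker used above. Ptn ran closest to Eno3 (0.94), Igf1 (0.94) and Zfp12 (0.93).

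The low genes had other companions. Lif ran closest to Nudt8 (0.94), Gm6682 (0.90) and Taf5l (0.90), and Bdnf to Ncbp2 (0.96), Cers5 (0.94) and Prdm16 (0.94). Fgf2 ran closest to Zfp462, Cep128 and Zranb3 (0.91 each), and r was 0.77, 0.73 and 0.68 without Nrf2 2 and Nrf2 1, the libraries farthest from its median.

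Receptors and co-receptors of the 9 factors were examined next, 23 genes of which 22 were tested and none passed the threshold in edgeR, with a median log2 fold change of -0.08. At an unadjusted p under 0.05 there were 4 of 22, where 18.1% of all genes reached that level. They were chosen for naming after their values were seen: Ntrk2, the Bdnf receptor, at 0.95 (adjusted p = 0.0982), Fgfrl1, an Fgf receptor that lacks the kinase domain, at 1.07 (adjusted p = 0.0701), Fgfr3 at -1.001 (adjusted p = 0.207), and Ret, the signaling receptor for Gdnf, at -2.05 (adjusted p = 0.18). DESeq2 called all 4, where it called 11.9% of all genes, and voom called Ntrk2 and Fgfrl1, where it called 15.9%. The receptors of Lif and Cntf were outside that group. Lifr averaged 42.1 CPM in control and 29.4 CPM in Nrf2 eyes (adjusted p = 0.52), Il6st 109 and 117 CPM (adjusted p = 0.44), and Cntfr 14.6 and 19.6 CPM (adjusted p = 0.43).

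Of 17 proteins that process or bind the factors, 16 were tested and 1, Igfbp3, rose, beside 3.43% of all genes called in either direction. At an unadjusted p under 0.05 there were 5 of the 16, beside 18.1% of all genes. Igfbp3 and Igfbp2 were higher in Nrf2 eyes. The others, named after their values were seen, were lower: Ece1 at -0.79 (adjusted p = 0.26), Fgfbp3 at -0.76 (adjusted p = 0.26) and Pcsk7 at -0.40 (adjusted p = 0.27). Igfbp3, which encodes the main carrier of Igf1 in blood, averaged 23.3 ± 9.99 CPM in control and 127 ± 61.8 CPM in Nrf2 eyes (SD, n = 7). Its highest control value, 36.2 CPM in control 3, lay just below its lowest Nrf2 value, 37.4 CPM in Nrf2 4. The groups thus did not overlap, which held for 1.76% of all genes. Control 3 and Nrf2 4 are the libraries found above to be close to each other and alike in vector transcript. Without mice 3 and 4 the highest control value was 36.1 CPM in control 2 and the lowest Nrf2 value 90.7 CPM in Nrf2 2. With a fold change of 2.49 (SE 0.37, adjusted p = 0.0135), Igfbp3 passed in all 14 alternatives. Igfbp2 averaged 338 and 626 CPM, was higher in 7 of 7 mice and had an adjusted p of 0.0513, just outside the threshold. The median of the 16 was -0.27, with 12 below 0.

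Among 30 further trophic factors, 25 were tested, 3 rose (Igf2, Nrg1 and Fgf1), 1 fell (Nxnl1), and the median log2 fold change was 0.11. These 4 of 25 stand beside 3.43% of all genes, and 6 of 25 at an unadjusted p under 0.05 beside 18.1%. Igf2, an insulin-like growth factor as Igf1 is, ran from 15.8 through 30.4 to 50.7 CPM in control and from 56.0 through 87.4 to 113 CPM in Nrf2 libraries, again without overlap. With a fold change of 1.56 (SE 0.21, adjusted p = 0.0109), Igf2 passed in all 14 alternatives, whereas Igf1 passed in none. Whether the changes of Igf1 and Igf2 differ was not tested. Nrg1 (neuregulin 1), a ligand of ErbB receptors, averaged 5.57 ± 3.09 and 22.7 ± 7.83 CPM (SD, n = 7), a fold change of 2.25 (SE 0.41, adjusted p = 0.0261). Fgf1, the acidic relative of Fgf2, averaged 6.36 ± 2.42 and 19.1 ± 7.73 CPM (SD, n = 7), a fold change of 1.70 (SE 0.32, adjusted p = 0.0271), and was lower in the Nrf2 eye of mouse 4 only. Both calls were sensitive to the mice included. Nrg1 missed the threshold when mouse 1, 2, 3, 5 or 7 was left out, with adjusted p up to 0.0947, and Fgf1 when any mouse but mouse 4 was, with adjusted p up to 0.118. Those fits called fewer of all genes, from 0.595% without mouse 7 to 1.83% without mouse 2, beside 3.43% with all mice. With 1 mouse left out, the fold change stayed between 2.01 and 2.50 for Nrg1 and between 1.48 and 1.98 for Fgf1.

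Nxnl1, which encodes the rod-derived cone viability factor made by photoreceptors, ran from 9.87 through 20.9 to 34.9 CPM in control and from 2.02 through 2.88 to 10.1 CPM in Nrf2 libraries. It was lower in the Nrf2 eye of 7 of 7 mice, with a fold change of -2.27 (SE 0.28, adjusted p = 0.00935). The summed cone markers were lower in the same 7 mice and the summed rod markers in 6 of them, at 19.8 to 436 CPM in control and 6.96 to 100 CPM in Nrf2 libraries. Their part in the value of Nxnl1 was not tested.

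**Figure D4:**
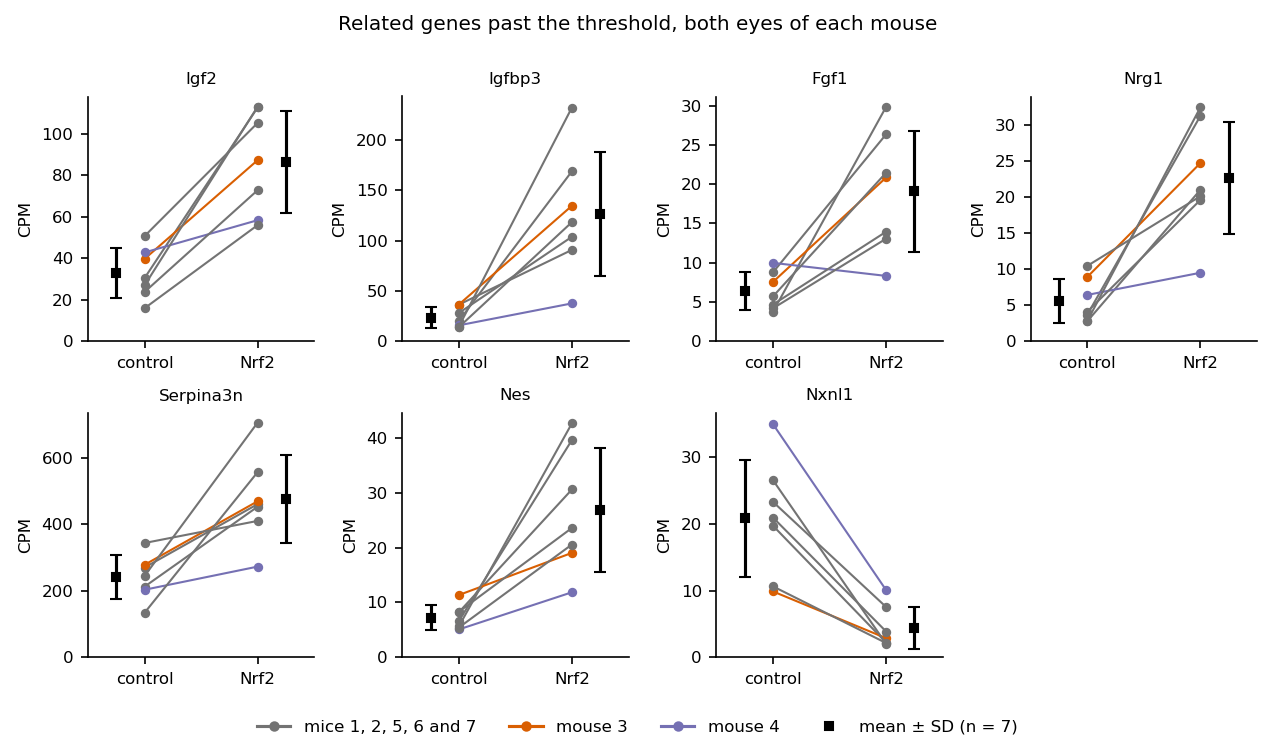
Levels in CPM (y axis, linear from 0, each panel with its own range) of the 7 related genes past the threshold, in the control and Nrf2 eye of each mouse, joined by a line. Squares with bars are the mean ± SD of 7 libraries. In Igf2, Igfbp3 and Nes every Nrf2 library lies above every control library, and mouse 4 has the lowest Nrf2 value in Igfbp3, Fgf1, Nrg1, Serpina3n and Nes.

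Downstream of Lif and Cntf, 10 Stat3 target and gliosis genes were tested and 2 rose, Serpina3n and Nes, beside 3.43% of all genes called. The median log2 fold change of the 10 was 0.63, and 6 of the 10 had an unadjusted p under 0.05, beside 18.1% of all genes. Serpina3n, a protease inhibitor of the acute phase response, averaged 241 ± 66.5 and 476 ± 133 CPM (SD, n = 7), a fold change of 1.10 (SE 0.20, adjusted p = 0.0250). Nes, which encodes the intermediate filament nestin, averaged 7.23 ± 2.23 and 26.8 ± 11.3 CPM (SD, n = 7) without overlap, a fold change of 1.94 (SE 0.28, adjusted p = 0.0128). The highest control value of Nes, 11.4 CPM, and its lowest Nrf2 value, 11.9 CPM, were again in control 3 and Nrf2 4. The other 4 at that level were chosen for naming after their values were seen. Socs3, the feedback inhibitor of Stat3 signaling, averaged 8.26 CPM in control and 17.6 CPM in Nrf2 eyes (adjusted p = 0.12). Osmr, a cytokine receptor, averaged 75.9 and 133 CPM (adjusted p = 0.0876), Vim, the filament protein vimentin, 161 and 223 CPM (adjusted p = 0.064), and Cebpd, a transcription factor, 33.3 and 50.2 CPM (adjusted p = 0.13). Gfap, the classic gliosis marker, averaged 56.6 and 41.0 CPM (adjusted p = 0.76). Bcl3 averaged 20.7 and 10.1 CPM (adjusted p = 0.58) and Lcn2 3.37 and 2.79 CPM (adjusted p = 0.64). With Gfap they made 3 of the 10 with a fold change below 0. Stat3 itself averaged 171 and 173 CPM (adjusted p = 0.55). The count of 2 depended on the mice. It was 0 without mouse 7, 1 without mouse 1, 2 or 3, and 4 without mouse 4. The share of all genes called moved too. It was 0.595% without mouse 7, 0.82%, 1.83% and 1.01% without mouse 1, 2 and 3, and 12.2% without mouse 4. Serpina3n and Nes had adjusted p of 0.0976 and 0.0547 without mouse 7.

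Downstream of Fgf receptors, 10 feedback and target genes of the kinase ERK, called ERK feedback genes below, were tested and none passed in edgeR. At an unadjusted p under 0.05 there was 1, Etv5, a transcription factor induced by Fgf signaling, at 49.2 CPM in control and 78.2 CPM in Nrf2 eyes (fold change 0.82, adjusted p = 0.15). That 1 of 10 stands beside 18.1% of all genes. DESeq2 and voom each called 1 of the 10, again Etv5. The median log2 fold change of the 10 was -0.08.

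**Figure D5:**
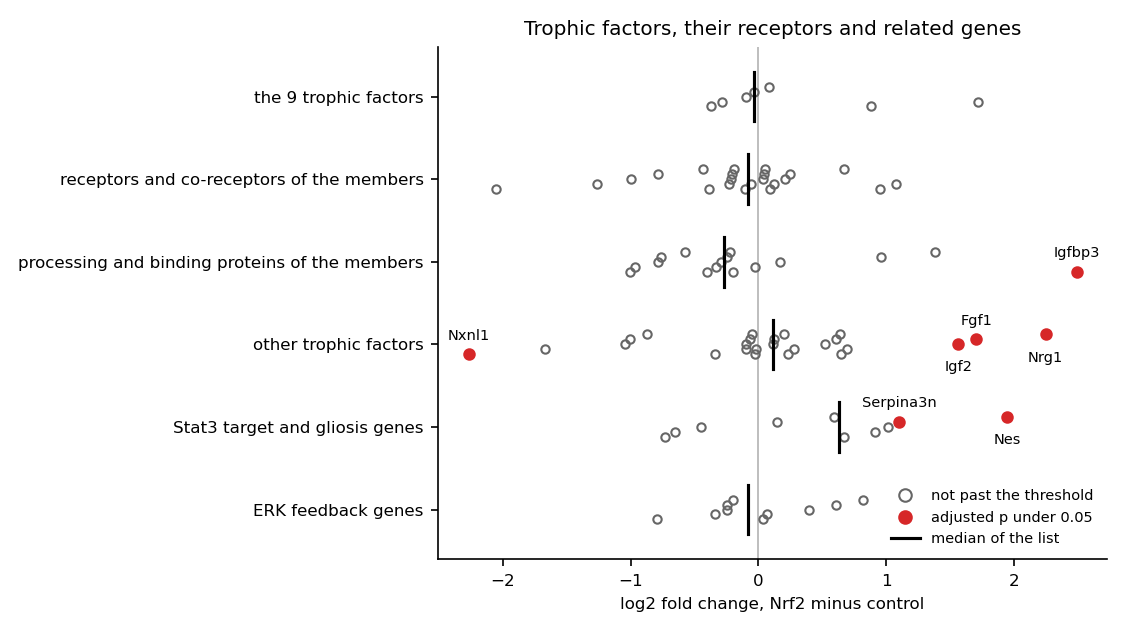
Log2 fold change, Nrf2 minus control (x axis), of each tested gene in the 6 gene lists (rows), with a bar at the median of the list. Filled points have an adjusted p under 0.05. Filled points are absent from the rows of the 9 factors, the receptors and the ERK feedback genes, and Igfbp3 lies farthest to the right at 2.49.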

How the data were processed

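The authors amplified RPE RNA with an Ultra Low v4 kit, aligned reads to mm10 and, in parallel, quantified transcripts with Salmon (0.9.1 per the labels). The deposited table holds estimated counts for each gene, given as whole numbers and not normalized between libraries, and that they come from the Salmon route was inferred from the rows. The 14 libraries were sequenced in 2 runs, but the labels used here do not tie libraries to runs, so none was compared within a run. The study's methods give another number of pairs at this age than the 7 in the labels, and all 7 were used. Strand handling was not given in the sources used here.

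Of 34452 mouse gene rows, 34401 matched GENCODE M21 (GRCm38), which gave symbols, positions and exon lengths. The vector row, human NFE2L2, was left out of library sizes and tests. Counts were tested with edgeR 4.0.16 (R 4.3.3): TMM, filterByExpr with a minimum count of 10, mouse and treatment as terms, the quasi-likelihood F-test, and Benjamini-Hochberg adjustment over 16289 genes. SE were derived from F, with 6 residual degrees of freedom and 2.68 added by the prior. Single genes were also tested by an exact sign-flip permutation over 128 patterns. P-values measure how the difference between the eyes of a mouse varied over 7 mice, except in the fit without the mouse block. The pairing follows the labels, which give both eyes the number of the animal. Residuals from the means of each group correlated within mice 1 to 7 at 0.03, 0.16, 0.11, -0.43, 0.40, -0.25 and 0.18 over 12044 genes.

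The alternatives were no mouse block, RLE normalization, DESeq2 1.42.0, voom with quality weights (limma 3.58.1), no filter, a mean of at least 10 counts, each mouse left out and mice 3 and 4 left out. The pseudocount of the sign-flip test was 1 or 0.1 CPM. Counting error limited the values of Edn2 and Gdnf. A count of 0 was read as up to 3 counts, which covers counting error only.

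The 9 genes and all lists were chosen with earlier results of these data known. In the list of other trophic factors, 1 gene is not reported here. Named genes are the 9, list genes past the threshold and, for each tested factor, the 3 genes of highest r. Receptor, Stat3 and ERK genes below the threshold, Igfbp2, Ece1, Fgfbp3, Pcsk7 and the printed promoter stretches were added after their values were seen. Under the rule made for promoters, only factors past the threshold would have been shown.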

Additional observations from a re-analysis of the deposited data

Results flagged for a closer look

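In 5 of 48 sets of 7 values examined over 16 genes, 1 value lay far from the others by Dixon's test at the 95% level. Chance alone gives about 1 such set in 20. Fgf2 reached 22.1 CPM and Gdnf 2.61 CPM in Nrf2 2, and the paired difference of Gdnf in that mouse was 1.33 on the log2(CPM + 1) scale. Nrf2 2 was also the shallowest library and the one with the largest share of counts in pseudogenes, at 2.57%, and the part of either in these values was not tested. Edn2 reached 1.01 CPM in control 7, and Cntf reached 47.8 CPM in Nrf2 7, the deepest library.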

How the results depend on the processing

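Directions were stable for Lif, Cntf, Bdnf and the 7 related genes past the threshold in all 14 alternatives, and the rest turned. The 559 genes called (3.43% of those tested) became 1943 (11.9%) with DESeq2, 2594 (15.9%) with voom and 347 (1.19%) with no filter. Without mice 3 and 4 there were 761 (4.59%). With 1 mouse left out they ran from 97 (0.595%, without mouse 7) to 1995 (12.2%, without mouse 4). The highest count of each list below with 1 mouse left out came from the fit without mouse 4. Without the replicate block there were 1100 (6.75%), a number given because the eyes are paired by animal. Of the 7 factors, DESeq2 called 2, voom 1 and the fits that left out 1 mouse 0 to 1. Receptors called numbered 2 without the block, 4 with DESeq2, 2 with voom, 1 without mice 3 and 4, and 0 to 3 with 1 mouse left out. Processing and binding proteins numbered 2 without the block, with DESeq2 and with voom, and 1 to 3 with 1 mouse left out. Other trophic factors numbered 2 to 4 with 1 mouse left out. Stat3 and gliosis genes numbered 5 without the block, 6 with DESeq2, 6 with voom and 0 to 4 with 1 mouse left out. ERK feedback genes numbered 1 with DESeq2, 1 with voom and 0 to 1 with 1 mouse left out. The fold change of Fgf2 was 0.48 without the block, and -0.47 to 0.23 with 1 mouse left out. That of Igf1 was -0.56 with voom and -0.32 to 0.35 with 1 mouse left out. Those of Mdk and Ptn were -0.35 to 0.031 (without mouse 5) and -0.74 to 0.085 (without mouse 3) with 1 mouse left out. With all mice, neither the blocked edgeR fit nor the edgeR fit without the block called a factor. The cause was not tested.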
